A study of Mus musculus with 4 samples.

Results

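Collagen genes were examined in an ATAC-seq study of the melb-a line of mouse melanoblasts, the cells from which melanocytes arise. ATAC-seq measures open chromatin through the insertion of adapters by a transposase, and a peak is a stretch of the genome where insertions pile up. The members are Col1a1, Col1a2, Col3a1, Col5a1, Col4a1, Col4a2, Col6a1 and Col17a1, and every peak that the deposited table assigns to one of these 8 genes was taken, which gave 64 of 70436 peaks. All cells carried a lentiviral short hairpin RNA and were selected with puromycin, and the labels give all of them a wt genotype. The control group held 2 libraries, with shLuciferase (control 1) and shScramble (control 2). The Hira group held 2 libraries, shHIRA I and shHIRA II (hairpins I and II), directed at Hira, a histone chaperone that places H3.3 in chromatin. Accessibility with and without the Hira hairpins was compared, and these data do not measure the Hira transcript itself.

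Collagens are secreted proteins whose chains wind into triple helices. Fibrillar collagens assemble into the fibres of dermis, bone and vessel walls, and are made mainly by fibroblasts and related mesenchymal cells. Type IV collagen forms the sheet-like network of basement membranes, the layer on which epithelial and endothelial cells rest and along which melanoblasts of the skin settle. Type VI collagen forms beaded filaments between cells and matrix. Type XVII collagen is a transmembrane protein of hemidesmosomes, the junctions that anchor keratinocytes to the basement membrane, and in mouse hair follicles it is known for its role in the upkeep of melanocyte stem cells.

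The 4 libraries held between 8910983 and 20716859.5 tags in peaks, with the fewest under hairpin II. The difference between both controls was no larger than sampling noise of whole counts (chi-square per peak 0.933, against 6.24 for the 2 Hira libraries). They were counted as 1 sample in means and in n. Because tags come in multiples of 0.5, a chi-square under 1 does not show the controls to be closer than sampling noise. Values this close could come from 1 library deposited as 2, which was not tested. Levels are given in CPM (tags scaled to a TMM-corrected library total), library by library, or as 1 control value (n = 1) beside the mean ± SD of both Hira libraries (n = 2). Called higher or lower means an adjusted p under 0.05 in edgeR's quasi-likelihood test over all peaks, a fit that counted the controls as 2 libraries, unlike the n given for means. If they are 1 sample, its p-values are too small. No hairpin had a second library, so the p-values reflect spread among the 4 libraries alone, in which hairpin, culture and technical differences cannot be told apart. Cells were measured in bulk, where more cells with an open site and a site open more often per cell cannot be told apart.

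Chromatin at the starts of these genes was covered by a peak in 1 case of 8. A peak of 2260 bases spanned the Col5a1 start (chromosome 2, 27885606 to 27887865), in the first exon by the table's annotation. The nearest peak began 0.566 kb past the Col1a1 start, 2.02 kb from the Col1a2 start and 2.32 kb from the Col3a1 start. It lay 6.03 kb from the Col17a1 start, 8.86 kb from that of Col6a1 and 10.2 kb from those of Col4a1 and Col4a2. Among all 27025 genes of the RefSeq promoter table, 36.6% had a peak over their start. The 250 bases before the Col5a1 start (chr2:27886175-27886424, plus strand, RefSeq, GRCm38.p6, the mm10 build) are shown because they are the only member promoter inside a peak, with matches to the GC box (GGGCGG, either strand) in capitals.
Col5a1: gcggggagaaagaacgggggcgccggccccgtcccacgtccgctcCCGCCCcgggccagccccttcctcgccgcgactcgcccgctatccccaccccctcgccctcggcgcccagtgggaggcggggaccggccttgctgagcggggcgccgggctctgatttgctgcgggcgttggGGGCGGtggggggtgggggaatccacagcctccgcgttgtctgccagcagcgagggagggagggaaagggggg

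The stretch held 2 GC boxes, 1 on each strand, a motif found in the same 250 bases of 32.7% of 32851 promoters. Letters of the CCAAT box (CCAAT, in 33.8% of promoters), the TATA box (TATAAA, 12.4%), the AP-1 site (TGANTCA, 6.75%), the E-boxes CATGTG (12.3%) and CACGTG (6.02%) and the TEAD site (GGAATG, 12.6%) were searched on both strands and had 0 matches there. A match describes letters and shows no binding.

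Col4a1 and Col4a2 lie head to head on chromosome 8, and the table's gene names are affected by this. The Col4a2 transcript starts on the plus strand and the Col4a1 transcript on the minus strand, and the 22 bases from one start to the other (chr8:11312805-11312826, plus strand, RefSeq, GRCm38.p6) are shown because they set which name a peak receives.
Col4a1 and Col4a2: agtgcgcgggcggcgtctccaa

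Each gene's start lies slightly inside the other transcript, so a peak in the body of Col4a1 is nearer to the Col4a2 start, and the reverse. By position, 10 of the 16 peaks named Col4a2 lay in introns of Col4a1, and the other 6 beyond the Col4a1 end. The 6 peaks named Col4a1 lay in introns of Col4a2. The type IV peaks are therefore described below as 1 locus, with the table's name beside each position.

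More collagen peaks rose than fell under the Hira hairpins. Of 64 member peaks, all of them tested, 20 were higher (31.2%) and 3 lower (4.69%), where 14.4% of all tested peaks were higher and 11.0% lower. Outside promoters and 5′ UTRs, where 63 of the 64 members lie, the shares were 15.7% and 12.2%. The median log2 fold change was 0.36 over the members and 0.0019 over all peaks. The calls rest on how the controls are treated: with the controls summed to 1 sample the quasi-likelihood test called 0 member peaks (lowest adjusted p 0.0704, with 22 of them under 0.05 before adjustment), while edgeR's likelihood ratio test on the same samples called 16 higher and 2 lower (7.51% and 4.64% of all peaks). A newer quasi-likelihood estimate on them called 17 higher and 2 lower (8.47% and 5.67% of all peaks). The quasi-likelihood test also called 0 without control 1 (23 at an unadjusted p under 0.05) or without control 2 (21). Under the authors' scaling, worked out from the fold changes they deposited, which shifts the median of all peaks to −0.26, 18 were higher and 6 lower, beside 11.1% and 19.0% of all peaks. The authors' deposited table calls 14 of the member peaks higher and 4 lower, and 8.48% and 11.8% of all its peaks. By its own values, all its calls matched an adjusted p under 0.01 with at least a 2-fold change. That is a stricter rule than the 0.05 used here, so the counts are not at like thresholds. Of the 23 calls made here, 17 have the same call there.

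By size alone, 13 member peaks were at least 2-fold above the controls under both hairpins and 1 was at least 2-fold below, where 8.18% and 5.73% of all peaks did so. Both Hira libraries lay above both controls at 37 members and below both at 13, where 34.5% and 34.3% of all peaks did so.

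**Figure D1:**
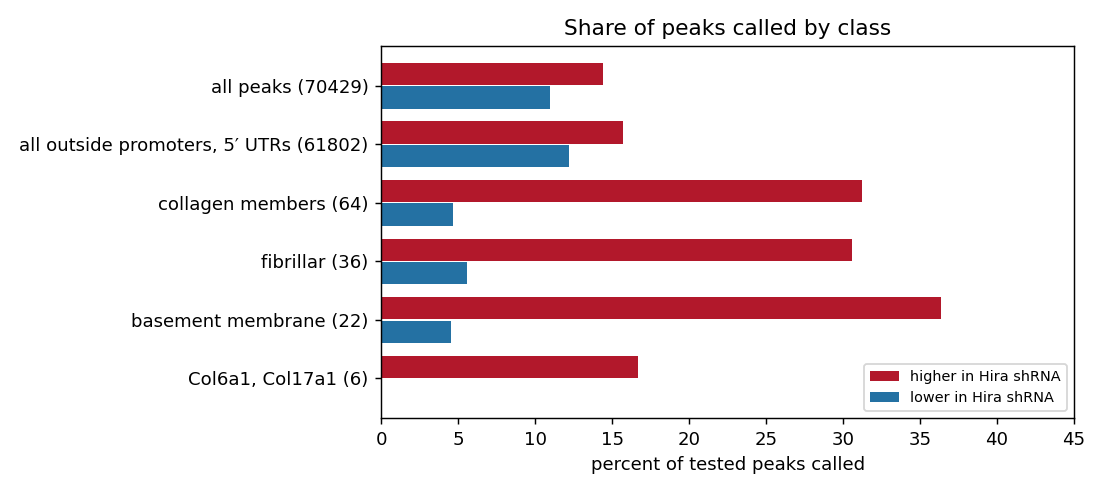
Share of tested peaks called higher (red) or lower (blue) in Hira shRNA, in percent (edgeR quasi-likelihood, adjusted p under 0.05), with the number of tested peaks in parentheses. The collagen members had 31.2% higher and 4.69% lower, against 14.4% and 11.0% of all peaks, and the fibrillar and basement membrane classes had like shares.

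Col1a1 encodes the α1 chain of type I collagen, the main fibrillar collagen of skin and bone. Of its 6 peaks 3 were higher (50%) and 0 lower, beside 14.4% and 11.0% of all peaks. The 3 rising peaks all lay upstream of the gene, and the peaks inside the gene did not pass the test. The peak 8.21 kb upstream (chromosome 11, 94927695 to 94928328, intergenic) had 0.981 and 0.879 CPM in controls 1 and 2, 12.0 under hairpin I and 6.90 under hairpin II. In the controls it ranked at the 0.948th percentile of all peaks by CPM per kb, and both Hira libraries stood well above both controls. It rose 10.1-fold (log2 fold change 3.36, SE 0.37, edgeR adjusted p = 0.0125). A neighbouring peak 7.26 kb upstream (94928795 to 94929126) went from 2.25 and 1.98 CPM to 10.6 and 5.70, a rise of 3.83-fold (1.95, SE 0.35, adjusted p = 0.0181).

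Farther from Col1a1, the peak 19.7 kb upstream (94916163 to 94916819) rose 2.40-fold, from 11.5 and 10.8 CPM to 31.9 and 21.7 (adjusted p = 0.015). The peak beside it, 20.4 kb upstream, had 6.68 and 6.59 CPM in the controls and 13.7 and 9.29 under the hairpins, and missed the threshold (log2 fold change 0.81, SE 0.23, adjusted p = 0.0529). Hairpin I stood above hairpin II at each of these 4 upstream peaks. In intron 1, 1.18 kb past the start, levels were 24.1 and 22.2 CPM in the controls, 31.1 under hairpin I and 25.3 under hairpin II (0.29, SE 0.13, adjusted p = 0.169). The peak in intron 19 had a log2 fold change of −0.44 (adjusted p = 0.221). The nearest other protein-coding gene, Sgca, lay between 20.2 and 46.8 kb from the 6 peaks.

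Col1a2 encodes the α2 chain, which joins α1 chains in the type I helix. Of its 12 peaks 1 was higher and 2 were lower (8.33% and 16.7%), shares near the 14.4% and 11.0% of all peaks. The peak 36.5 kb upstream (chromosome 6, 4469001 to 4469275) had 3.88 and 3.70 CPM in the controls and 0.272 and 0.342 under hairpins I and II. Hardly any tags were left there, 4 and 3 against 140 in both controls together. The ratio to the controls was 0.0715 under hairpin I (exact 95% interval 0.0192 to 0.187) and 0.09 under hairpin II (0.0183 to 0.268), which covers counting error only, and the mean fell 12.4-fold (log2 fold change −3.63, SE 0.33, adjusted p = 0.0125).

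The strongest Col1a2 peak, in intron 30 (4526591 to 4527183), lay at the 91.7th percentile of all peaks in the controls by CPM per kb. It went from 23.9 and 27.6 CPM to 11.8 and 13.1, with no overlap between groups (−1.05, SE 0.14, adjusted p = 0.0126). In between, a peak 17.1 kb upstream of the start (4488167 to 4488780) rose from 5.29 and 5.62 CPM to 18.3 under hairpin I and 9.64 under hairpin II (1.38, SE 0.32, adjusted p = 0.0329). With the controls as 1 sample, the likelihood ratio test did not call it (adjusted p = 0.0789) and the newer quasi-likelihood estimate did (0.0481). The peak nearest the Col1a2 start, 2.21 kb upstream, had 2.42 and 2.83 CPM in the controls, 4.38 under hairpin I and 2.11 under hairpin II, so the hairpins lay on either side of the controls (0.35, SE 0.38, adjusted p = 0.535). The other 8 peaks had log2 fold changes from −0.77 to 0.97 and were not called. No other protein-coding gene lay closer than 54.9 kb to any of the 12 peaks.

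Col3a1, which encodes the fibrillar type III collagen of skin and vessels, had 1 peak, in intron 1 (chromosome 1, 45313859 to 45314277). Its levels were 2.49 and 2.83 CPM in the controls and 3.70 and 3.25 under hairpins I and II. Both Hira libraries were above both controls, and the difference was not called (log2 fold change 0.38, SE 0.24, adjusted p = 0.294).

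Col5a1 encodes the α1 chain of type V collagen, which is built into type I fibrils and limits their diameter. It had the most peaks and the most rising peaks of the 8 genes. Of its 17 peaks 7 were higher (41.2%) and 0 lower, beside 14.4% and 11.0% of all peaks. Of the 7, 6 lay in the intergenic stretch between 27.8 and 73.1 kb upstream. The peak 58.9 kb upstream (chromosome 2, 27827034 to 27828117) rose from 3.35 and 3.42 CPM to 15.6 and 11.5 (log2 fold change 2.02, SE 0.22, adjusted p = 0.0125). It overlaps an ancient MIRb repeat by the table's annotation. The strongest of the group, 27.8 kb upstream, stood at 29.0 and 29.2 CPM in the controls and 53.9 and 55.5 under the hairpins, so that libraries of each group nearly coincided. It was called (0.91, SE 0.08, adjusted p = 0.0125), and the authors' deposited table does not call it (log2 fold change 0.67).

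The 4 other rising upstream peaks, at 73.1, 63.1, 41.5 and 39.2 kb, were weak in the controls, with control levels between 0.923 and 1.44 CPM and rises between 2.44-fold and 5.24-fold. The peak at 41.5 kb went from 1.20 and 1.60 CPM to 9.48 under hairpin I and 4.90 under hairpin II, and lies in an MTEa retroviral repeat. At 39.2 kb hairpin II was the higher, with 5.53 CPM against 3.87 under hairpin I and 0.933 and 0.973 in the controls. The call at 63.1 kb, in an L1MB5 repeat, was lost in DESeq2's Wald test (adjusted p = 0.121), and on summed controls in the likelihood ratio test (0.113) and the newer quasi-likelihood estimate (0.0917). Between these sites, a strong peak 50.2 kb upstream had 21.9 and 22.4 CPM in the controls and 22.5 and 20.3 under the hairpins (−0.05, SE 0.11, adjusted p = 0.792).

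Downstream of the Col5a1 start, an intron 1 peak at 29.9 kb (27915850 to 27916838) rose 3.02-fold, from 5.79 and 5.53 CPM to 16.9 and 17.3 (1.59, SE 0.15, adjusted p = 0.0125). The peak over the start, whose promoter sequence is given above, had 47.6 and 47.4 CPM in the controls, 69.1 under hairpin I and 49.9 under hairpin II. Only hairpin I stood clearly apart from the controls there (0.34, SE 0.15, adjusted p = 0.164). The other 8 peaks had log2 fold changes from −0.23 to 1.10 and were not called. Rxra and Fcnb were the nearest other protein-coding genes, at least 49.7 kb away.

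**Figure D2:**
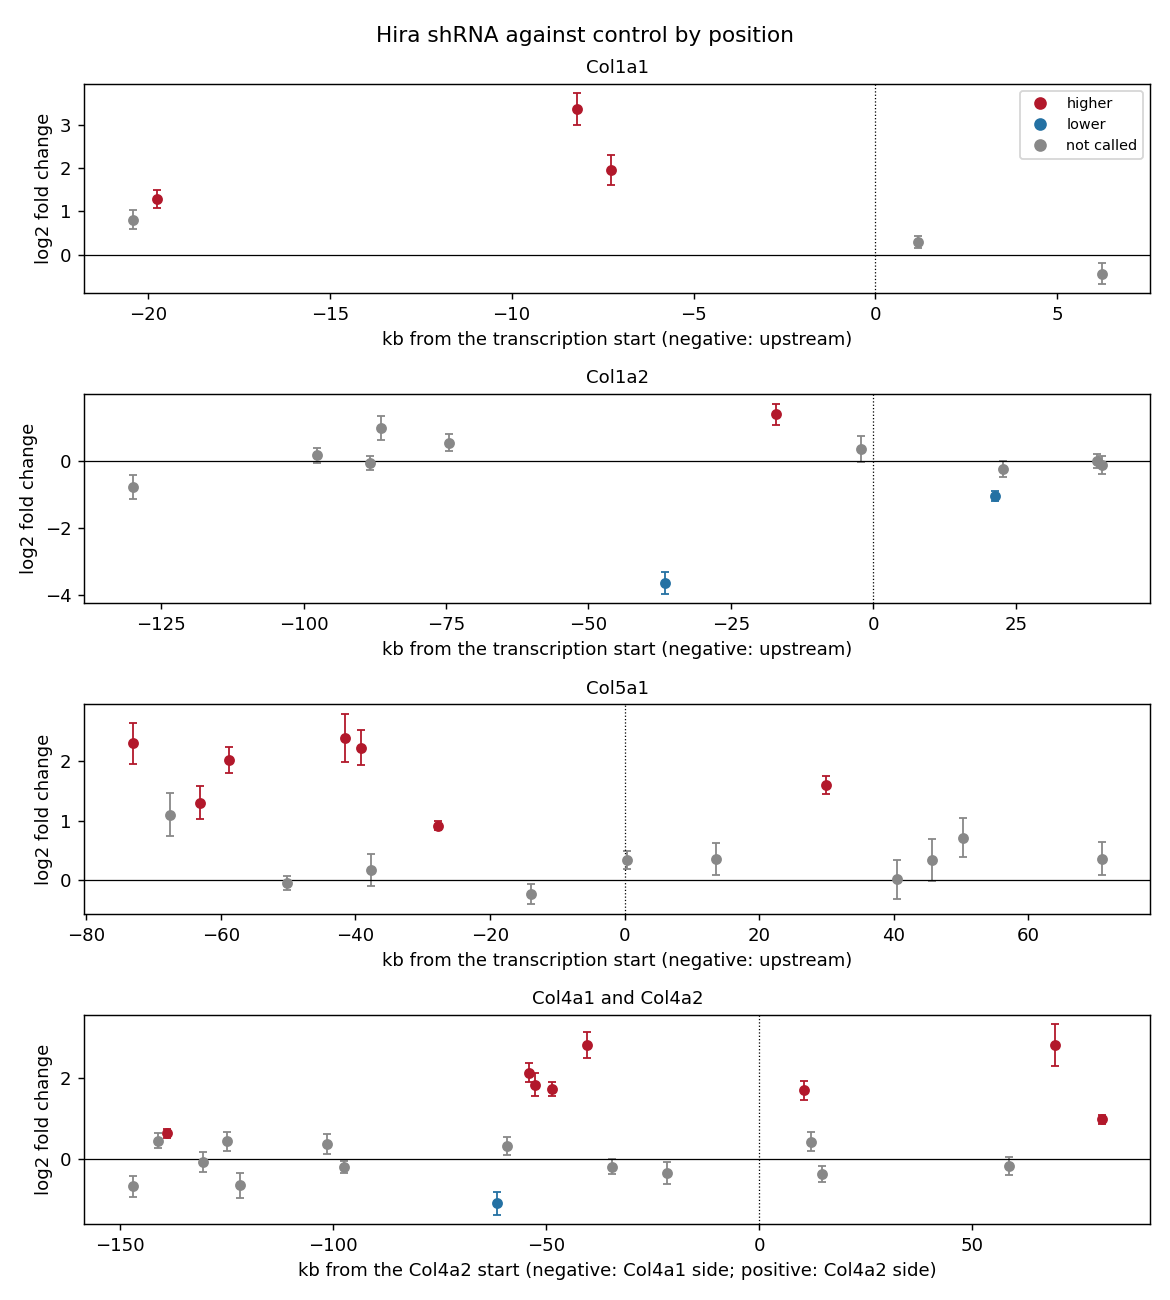
Log2 fold change of Hira shRNA over control (vertical axis, bars show ± 1 SE) for each peak by its distance in kb from the transcription start, with higher peaks in red, lower in blue and uncalled in grey. Rising peaks lay upstream of Col1a1, upstream of Col5a1 between 27.8 and 73.1 kb, and in groups on both sides of the shared type IV start, while Col1a2 had 1 rising and 2 falling peaks.

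Col4a1 and Col4a2 encode the chains of the main type IV heterotrimer, which has α1 and α2 chains. At their shared locus 8 of 22 peaks rose (36.4%) and 1 fell (4.55%), beside 14.4% and 11.0% of all peaks. In introns 1 and 2 of Col4a1, 4 peaks rose within a stretch between 40.4 and 54.1 kb from the shared start (all named Col4a2). The one at 40.4 kb (chromosome 8, 11272171 to 11272563) had 0.957 and 0.816 CPM in the controls, 5.23 under hairpin I and 7.58 under hairpin II. It rose 7.15-fold (log2 fold change 2.81, SE 0.31, adjusted p = 0.0125), and the hairpin with the fewest tags was the higher.

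The peak at 48.7 kb went from 4.19 and 4.55 CPM to 14.1 and 15.1, and that at 54.1 kb (11258526 to 11258913) from 3.28 and 4.49 to 18.8 and 14.8 (2.13, SE 0.24, adjusted p = 0.0125). The peak at 52.6 kb rose 3.58-fold, from 4.93 and 6.03 CPM to 24.0 and 14.7. Groups did not overlap at any of these 4 called peaks. Both Hira libraries lay above both controls at 34.5% of all peaks. Just beyond them, at 61.5 kb (11250989 to 11251584), a peak fell from 13.1 and 15.0 CPM to 4.96 under hairpin I and 8.72 under hairpin II (−1.07, SE 0.28, adjusted p = 0.0434). It was not called with the controls as 1 sample by the likelihood ratio test (adjusted p = 0.168) or the newer quasi-likelihood estimate (0.0715).

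The strongest peak of the locus lay in the same intron 1 of Col4a1, 21.7 kb from the start (11290655 to 11291634), at the 99th percentile of all peaks in the controls by CPM per kb. It had 79.5 and 79.9 CPM in the controls, 44.1 under hairpin I and 84.1 under hairpin II. Here only hairpin I stood apart from the controls (−0.33, SE 0.28, adjusted p = 0.422), and without hairpin I the value was 0.08.

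On the Col4a2 side, 3 of the 6 peaks rose (50%, beside 14.4% of all peaks). The one nearest the start, in intron 3 at 10.5 kb (11323046 to 11323670), went from 1.75 and 1.76 CPM to 5.47 and 5.87 (log2 fold change 1.70, SE 0.23, adjusted p = 0.0127). In intron 4, the peak at 80.5 kb (11392699 to 11394024) rose from 41.2 and 39.1 CPM to 86.6 and 72.1 (0.99, SE 0.11, adjusted p = 0.0125). It was the strongest rising member peak, and the authors' deposited table does not call it (log2 fold change 0.72). A peak 69.6 kb from the start (11381932 to 11382832) differed most between hairpins among the called peaks, with 14.1 CPM under hairpin I and 5.19 under hairpin II against 1.41 and 1.35 in the controls. Hairpin I gave 2.72 times the level of hairpin II there, and the rise was called (2.81, SE 0.51, adjusted p = 0.0184).

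Beyond the Col4a1 end, 1 of 6 peaks rose (16.7%), a share near the 14.4% of all peaks. It lay at 139 kb (11173187 to 11174139) and went from 20.8 and 20.4 CPM to 33.3 and 30.8 (0.64, SE 0.10, adjusted p = 0.0148). That call was lost under the authors' scaling (0.37, adjusted p = 0.267), and with the controls as 1 sample in the likelihood ratio test (0.149) and the newer quasi-likelihood estimate (0.0716). The farthest peak, at 147 kb, had 32.4 and 36.2 CPM in the controls, 16.0 under hairpin I and 28.2 under hairpin II, and was not called (−0.66, adjusted p = 0.115). By gene body rather than by table name, 4 of 10 peaks in Col4a1 rose (40%) and 1 fell (10%), and 3 of 6 in Col4a2 rose (50%). Among all peaks 14.4% were higher and 11.0% lower.

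**Figure D3:**
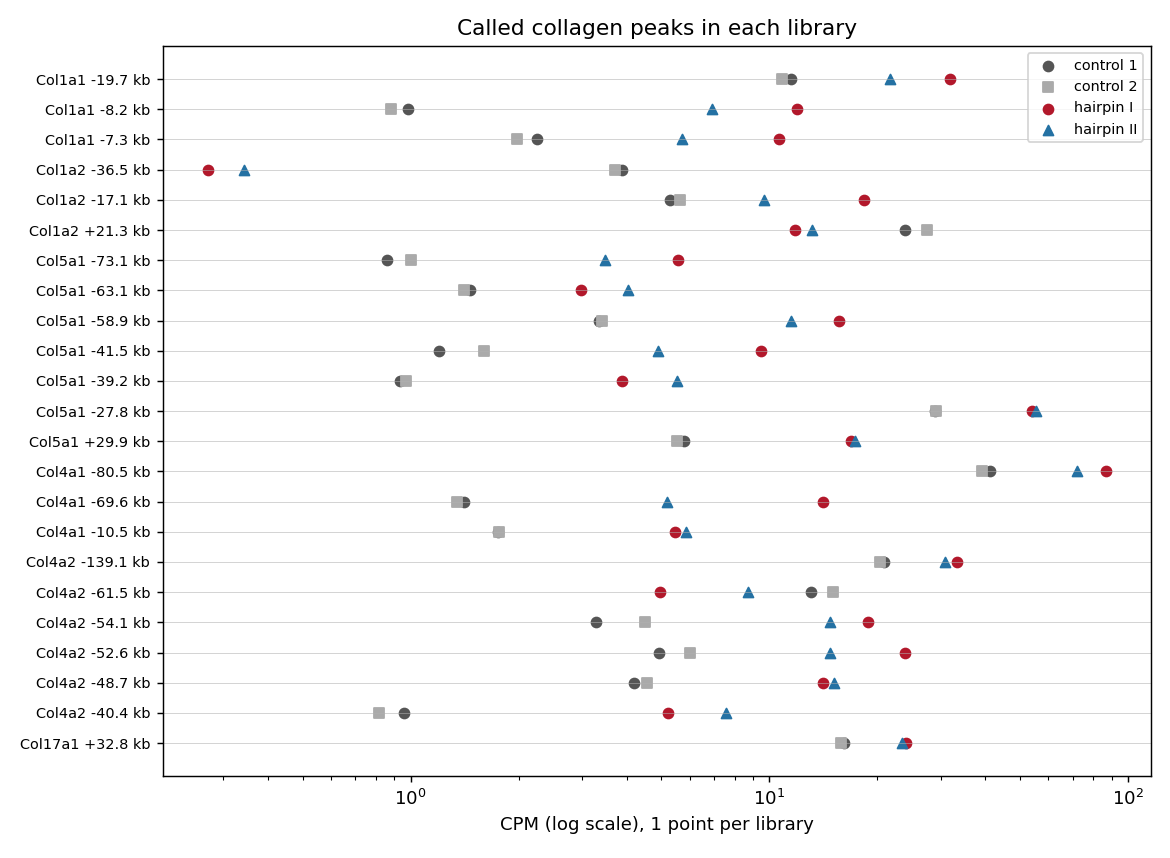
CPM (log axis) in each of the 4 libraries for the 23 called member peaks, 1 symbol per library, named by gene and signed distance from that gene's start as in the table. Control symbols lie close together in each line. Both hairpins lie on the same side of them at all 23 peaks, which choosing peaks by their call favours. Among all peaks, 34.5% had both Hira libraries above both controls and 34.3% below.

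Col6a1 encodes a chain of the beaded filament collagen type VI and had 1 peak, 9.15 kb upstream (chromosome 10, 76734901 to 76735496). Levels were 8.11 and 7.44 CPM in the controls, 9.21 under hairpin I and 6.27 under hairpin II, so the hairpins lay on either side of the controls (log2 fold change 0.01, SE 0.24, adjusted p = 0.973). Col17a1 had 5 peaks, of which 1 rose (20%) and 0 fell, beside 14.4% and 11.0% of all peaks. In intron 32 (chromosome 19, 47658739 to 47659815) levels went from 16.2 and 15.9 CPM to 24.1 and 23.4 (0.57, SE 0.11, adjusted p = 0.0219). This call did not hold under the authors' scaling (0.31, adjusted p = 0.379), in DESeq2 (0.0818), or on summed controls in the likelihood ratio test (0.328) and the newer quasi-likelihood estimate (0.13). The peak nearest the Col17a1 start, 6.37 kb upstream, had 14.0 and 14.2 CPM in the controls and 10.8 and 13.3 under the hairpins (−0.24, SE 0.16, adjusted p = 0.326). In intron 47, 4.47 kb from the neighbouring gene Slk, levels were 2.03 and 2.48 CPM against 1.39 and 1.48 (−0.67, adjusted p = 0.131), and with the authors' scaling this peak passed as lower (−0.95, adjusted p = 0.0424). The peak in intron 11, in a B3 repeat, had 2.61 and 2.89 CPM against 3.91 and 3.59 (0.48, adjusted p = 0.187). The remaining peak, in intron 20, had a log2 fold change of −0.12.

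Fibrillar and basement membrane collagens had like shares of called peaks. Of 36 fibrillar peaks 11 were higher and 2 lower (30.6% and 5.56%), and of 22 type IV peaks 8 were higher and 1 lower (36.4% and 4.55%). The median log2 fold change was 0.36 in the fibrillar class, from −3.63 to 3.36, and 0.41 in the type IV class, from −1.07 to 2.81. Peaks of a class share genes and libraries and are not replicates, so the difference between classes was not tested. Under the authors' scaling the medians were 0.07 and 0.12, where that of all peaks was −0.26. Col1a2 lowered the fibrillar median: without its peaks it was 0.76, with 10 of 24 peaks higher and 0 lower, and for Col1a2 alone it was −0.04. Without Col1a1, Col3a1 or Col5a1 in turn it was 0.36, 0.36 and 0.29. Within the type IV class the median was 0.71 for the peaks named Col4a1 and 0.35 for those named Col4a2.

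Hairpin I lay above hairpin II at 26 of 36 fibrillar peaks (72.2%) and at 10 of 22 type IV peaks (45.5%), against 51.5% of all peaks. The median log2 ratio to the controls was 0.58 under hairpin I and 0.16 under hairpin II for fibrillar peaks, and 0.31 and 0.22 for type IV peaks. With 1 library per hairpin this difference has no replicate check. Control levels were lower in the fibrillar class, with a median of 3.99 CPM against 7.58 in the type IV class and 6.03 over all peaks. Per kb of peak, the median fibrillar peak stood at the 32.4th percentile of all peaks in the controls and the median type IV peak at the 49.8th. Of the 20 rising member peaks 7 lay below the 10th percentile in the controls (35%), as did 44.2% of all rising peaks.

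**Figure D4:**
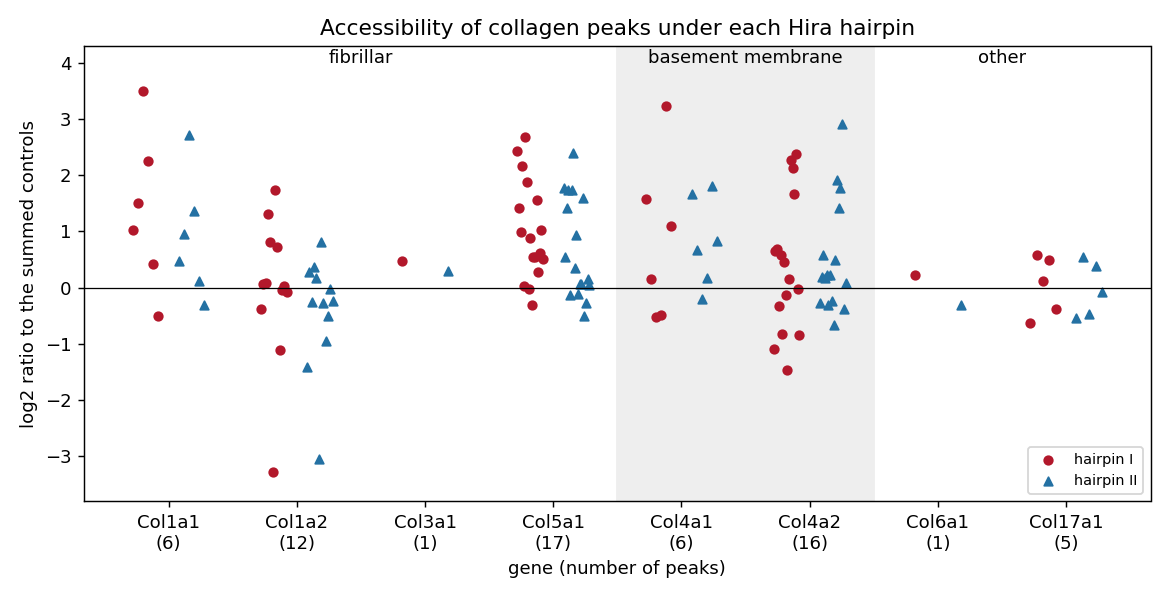
Log2 ratio to the summed controls (vertical axis) of each member peak under hairpin I (red circles) and hairpin II (blue triangles), by gene with the number of peaks in parentheses, in order along the chromosome within a gene. Col1a1 and Col5a1 lie mostly above 0, Col1a2 spreads on both sides, and the type IV genes (shaded) have medians of 0.31 and 0.22 under hairpins I and II.

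Tags summed over all peaks of a gene gave 1 value per gene, tested across 18478 genes. In this sum 3 of the 8 members were higher and 0 lower, where 8.07% of all genes were higher and 5.9% lower. Col4a1 (peaks by table name) went from 90.5 and 87.4 CPM in the controls to 142 under hairpin I and 135 under hairpin II (log2 fold change 0.64, SE 0.06, edgeR adjusted p = 0.0212). Col5a1 went from 140.0 and 142 CPM to 239.9 and 202 (0.65, SE 0.09, adjusted p = 0.0236). Col1a1 rose from 49.5 and 46.5 CPM to 102 and 72.1 (0.87, SE 0.17, adjusted p = 0.0355). Controls and Hira libraries did not overlap in these 3 genes, nor in the uncalled Col3a1, Col4a2 and Col17a1. The share of all genes without overlap was not counted, so this cannot be read as particular to the members. Among all single peaks, both Hira libraries lay above both controls at 34.5% and below both at 34.3%. All 3 calls were lost under the authors' scaling and with the controls as 1 sample in the quasi-likelihood test, also in its newer estimate, and held with the controls as 1 sample under the likelihood ratio test.

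In Col1a2 the opposed peaks left the sum at 79.6 and 83.3 CPM in the controls, 92.8 under hairpin I and 65.8 under hairpin II (−0.03, SE 0.16, adjusted p = 0.917). Col4a2, by table name, had 220.1 and 225 CPM in the controls and 228 and 265 under the hairpins (0.14, adjusted p = 0.261). The highest sums in the controls were those of Col4a2, Col5a1, Col4a1 and Col1a2, in that order, and they also reflect how many peaks each gene has. Among 9266 genes with at least 3 peaks, the pair of hairpin log2 ratios of summed tags nearest to the median over the fibrillar genes' sums (0.62 under hairpin I and 0.40 under hairpin II) was that of Fbxo32, followed by 6820426E19Rik and Smarcal1. Those nearest to the median over the sums of Col4a1 and Col4a2 (0.35 and 0.43) were Mir1932, Tslp and Pmfbp1. These are medians over genes, not over peaks as above, and the likeness rests on 2 ratios to the same controls.

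**Figure D5:**
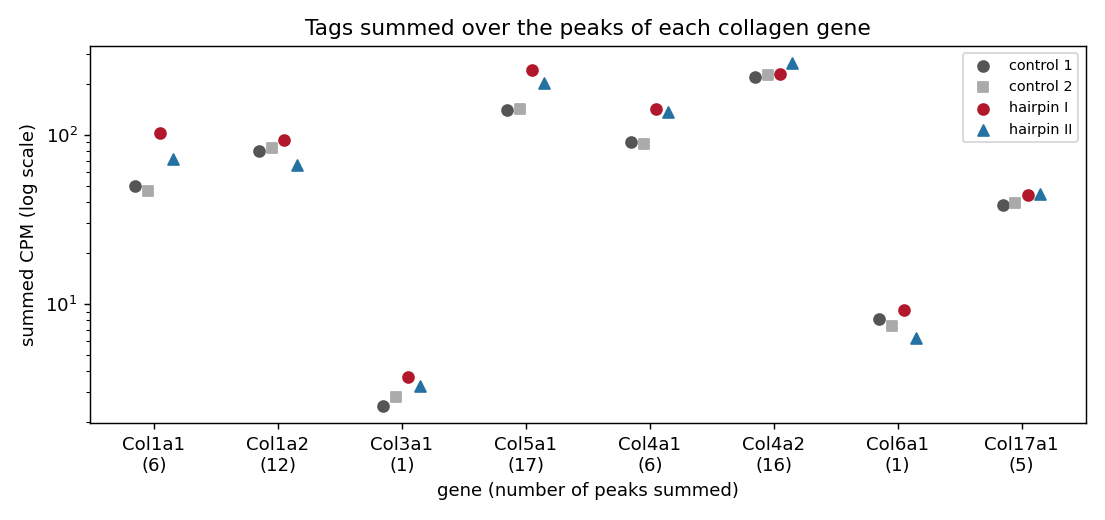
Tags summed over all peaks of each gene, in CPM (log axis), 1 symbol per library, with the number of peaks summed in parentheses. In Col1a1, Col5a1 and Col4a1 both hairpins lie above both controls, as they do in the uncalled Col3a1, Col4a2 and Col17a1. The share of all genes that do so was not counted, and among all single peaks it was 34.5%. In Col1a2 and Col6a1 the hairpins lie on either side.

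Other genes of collagen biology were read from lists, to be set against the 14.4% of all peaks that were higher and the 11.0% that were lower. Partners of type IV and XVII collagen in the basement membrane had 40 higher and 11 lower of 157 peaks (25.5% and 7.01%, median log2 fold change 0.19). Peaks in the laminin chain gene Lama5 (2.32 against 11.9 ± 0.262 CPM) and near Agrn, which encodes the heparan sulfate proteoglycan agrin (2.35 against 12.4 ± 1.06), were higher, each with an edgeR adjusted p of 0.0125. Collagens that are not members had 39 higher and 29 lower of 213 peaks (18.3% and 13.6%, median 0.03). They included higher peaks in introns of Col18a1 (6.41 against 30.7 ± 2.57 CPM), whose product is a basement membrane collagen, of Col16a1 and of Col19a1. Col5a2 is a neighbour of Col3a1, 60.1 kb from its peak.

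Genes of collagen processing had 24 higher and 11 lower of 115 peaks (20.9% and 9.57%, median 0.09). A peak in intron 1 of Loxl1, a crosslinking enzyme, went from 1.72 to 14.9 ± 4.78 CPM, and a peak 2.98 kb upstream of Serpinh1, a collagen chaperone, from 40.1 to 64.4 ± 3.51. Both rose, as did a peak 106 kb upstream of P3h2, a prolyl hydroxylase (edgeR adjusted p = 0.0125 for each). Collagen receptors had 14 higher and 13 lower of 75 peaks (18.7% and 17.3%, median −0.11). A peak near the receptor kinase gene Ddr1 rose from 24.3 to 55.8 CPM and one near the integrin gene Itga1 fell from 11.0 to 4.11 ± 0.39. Collagen-degrading proteases and their inhibitors had 5 higher and 4 lower of 44 peaks (11.4% and 9.09%, median 0.05).

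All 8 marker genes of melanoblasts had peaks, and of their 112 peaks 9 were higher and 36 lower (8.04% and 32.1%, beside 14.4% and 11.0% of all peaks), with summed levels of 1632 and 1622 CPM in the controls and 1278 and 1484 under hairpins I and II. The 11 fibroblast marker genes all had peaks as well, with 17 higher and 8 lower of 63 (27.0% and 12.7%), and summed levels of 403 and 392 CPM in the controls and 526 and 475 under the hairpins. The melanoblast sum was lower and the fibroblast sum higher in both Hira libraries than in both controls, and their part in the collagen results was not tested. Endothelial markers (6 of 7 genes with peaks) summed to 359, 365, 390 and 351 CPM in control 1, control 2, hairpin I and hairpin II. Keratinocyte markers (4 of 6, with no peak at Krt1 and Krt5) summed to 325, 334, 246 and 306 CPM in the same order, and Schwann cell markers (5 of 6) to 448, 461, 367 and 449.5. Immune markers (5 of 6, with no peak at Ptprc) summed to 50.8, 50.7, 73.7 and 62.0 CPM. The keratinocyte sum was likewise lower, and the immune sum higher, in both Hira libraries than in both controls. Higher and lower calls were 7 and 6 of 48 endothelial peaks (14.6% and 12.5%) and 2 and 3 of 19 keratinocyte peaks (10.5% and 15.8%). They were 0 and 2 of 32 Schwann cell peaks (0% and 6.25%) and 1 and 0 of 7 immune peaks (14.3% and 0%). The part of these lists in the collagen results was not tested either.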

How the data were processed

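A table was deposited, with a common peak set for the 4 libraries. Its tags per peak, estimated counts in multiples of 0.5, were deposited without normalization. The authors also deposited per peak a log2 fold change, a mean log2 CPM, a likelihood ratio score and p-values with their adjustment, of which the calls and fold changes were used for comparison and to recover their scaling. Per the submitters' processing notes, mm10, MACS2 2.2.9.1, edgeR 3.38.4, cutadapt 2.3, Picard and Bowtie2 were used, with no roles given. Peak calling per library or on pooled reads, read shifting and duplicate handling are not given in the sources used here.

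Tags were rounded to whole numbers and tested in edgeR 4.0.16 (R 4.3.3, limma 3.58.1) with the quasi-likelihood test, TMM factors, filterByExpr and Benjamini-Hochberg adjustment over 70429 peaks. The SE of a log2 fold change is its size over the square root of F. Hairpin ratios add 2 tags to each value, scaled by the size of the library or summed controls relative to the mean library. Alternatives included DESeq2 1.42.0, other scalings and filters, controls summed to 1 sample, and leaving out each library. Simulated data, drawn with the same spread in all 4 libraries, were used to check the fit. The real pairs differed in spread (biological coefficient of variation 0.010 for the controls, 0.237 for the Hira libraries). The simulation therefore cannot show how reliable the calls are here. Gene names, positions and promoter sequences came from RefSeq (GRCm38.p6), and 7 of 8 members matched in its promoter table. The Hira columns, which the table names ko, were matched to hairpins I and II by their numeral. The labels number no controls, so replicate numbers pair no samples.

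The named peaks are the nearest to each start and the 3 of lowest p per gene, and for each list the 3 of lowest p in different genes. A peak that this rule names is not reported here. Further member peaks were named after their values were seen. Members and lists were chosen with earlier results of these data known. Exact intervals cover counting error only.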

Additional observations from a re-analysis of the deposited data

How the results depend on the processing

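The count of 20 rising member peaks lay between 16 and 23 under the other tests, scalings, filters and the replicate block, except that it was 0 with the controls summed to 1 sample in the quasi-likelihood test and 0 under a stricter threshold (adjusted p under 0.01 and at least 2-fold). With 1 library left out it ranged from 0 (without either control) to 34 (without hairpin II). The count of 3 falling peaks was 0 with the controls summed in the quasi-likelihood test (2 in the likelihood ratio test and 2 in the newer quasi-likelihood estimate), 6 under the authors' scaling, 0 under the stricter threshold, and 0 to 10 with 1 library left out. The count of 3 genes called on sums was, with the controls summed, 0 in the quasi-likelihood test, 0 in its newer estimate and 3 in the likelihood ratio test. It was 0 under the authors' scaling, 0 under the stricter threshold, and 0 to 5 with 1 library left out. Without a hairpin, the spread comes from the near-identical controls alone. The cause of these changes was not tested.

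The fibrillar median of 0.36 was 0.76 without Col1a2 and ranged from 0.16 to 0.62 with 1 library left out. The type IV median of 0.41 was 0.12 under the authors' scaling, 0.71 without the peaks named Col4a2, and 0.23 to 0.50 with 1 library left out. With the replicate block, which uses the column numbers that share a number only, 22 peaks were higher and 4 lower and all 23 calls held. Of the 23 calls, 18 held with the controls summed under the likelihood ratio test and 19 in the newer estimate. The alternatives summing the controls this way, the type IV positions and the genes left out were chosen after seeing the data.

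Values near 0 turned sign. The Col1a2 peak 2.21 kb upstream went to −0.33 when hairpin I was left out and to 0.75 when hairpin II was, and the Col4a2 peak at 21.7 kb to 0.080 and −0.85. The Col6a1 peak was −0.0030 with the controls summed, −0.0028 under the likelihood ratio test with them summed, −0.0071 scaled by total tags, −0.28 under the authors' scaling, −0.0050 with at least 10 tags in every library, −0.012 with the replicate block, −0.06 without control 2 and ranged from −0.32 to 0.24 with 1 library left out, the lowest without hairpin I. The Col1a2 peak 36.5 kb upstream, with 3 tags in its lowest library, did not pass the filter of at least 10 tags.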
